A study of Mus musculus with 41 samples.

Results

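The livers described here came from 4-day-old C57/BL6NHsd mouse pups of dams on a regular diet (RD), 6 of them from pups exposed prenatally to metformin and 6 from control pups, out of 41 arrays in the series. They were chosen by their labels (liver, RD), and metformin was compared with control over both sexes with sex as a covariate. The metformin group held 3 males (1E, 3E and 6F) and 3 females (4E, 1F and 4F), and the control group 3 males (1B, 3B and 5C) and 3 females (2B, 1C and 6C). These arrays belong to the earlier of 2 animal studies of the series. The series also holds 12 livers of male pups of high-fat-diet (HFD) dams, from the later study, and 6 brains of the same RD males. All 12 RD livers had the same diet and age, and the sources used here describe the dosing of the HFD dams, given as in the earlier study, without a separate account for the RD dams. The letter of the animal code was E or F in metformin pups and B or C in control pups, with 3 livers to a letter. The sources do not state what the letter stands for. Each liver has its own code, so the p-values measure the spread between these pups, and with 6 arrays a group the precision is limited. Metformin was given to the dams, and the sources used here do not state how many dams these pups came from. Pups of 1 dam are not independent, so 6 pups a group may stand for fewer exposures.

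Metformin lowers glucose output of the adult liver, acts in part on complex I of the mitochondrial respiratory chain, and can activate the energy sensor AMPK. In the days after birth the mouse liver still makes blood cells beside its hepatocytes, and it makes much of its own cholesterol. When sterols in the endoplasmic reticulum are scarce, the protein Scap carries the transcription factor Srebp2 (gene Srebf2) to the Golgi, where it is cut and freed to switch on the genes of cholesterol synthesis. Insig1 holds Scap back when sterols are plentiful, and is itself a target of Srebp.

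Bead arrays measured RNA as log2 normalized intensity, and 17387 probes for 9989 named genes were detected in all 3 livers of at least 1 of the 4 groups of treatment and sex. Between 36.6% and 41.6% of 45281 probes were detected on each array, the correlation between any pair of arrays was at least 0.968, and Xist and Eif2s3y matched the labelled sex in 12 of 12 livers. Median raw intensity was lowest in the metformin livers 4F (50.8) and 3E (52.5), against 60.5 to 72.2 in the other 10 livers. The mean log2 level over 11 hepatocyte genes was 13.38 to 13.67 in metformin livers and 13.18 to 13.56 in control livers, so the defining markers of liver were present throughout.

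Insig1 was the gene that passed the test (adjusted p under 0.05, limma with Benjamini-Hochberg adjustment), which is 0.01% of genes by their brightest probe for higher levels, and 0% were called lower. At an unadjusted p under 0.05, 4.12% of genes were higher and 7.52% lower in metformin livers. The median log2 difference over all genes was -0.01, and 46.4% of genes had a positive one. In 0.25% of genes all 6 metformin livers lay above all 6 control livers, and in 0.461% all lay below.

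The brightest of 3 Insig1 probes read 8.76 to 10.32 in metformin livers (median 9.96) and 7.06 to 8.41 in control livers (median 8.02), all on the log2 scale. The lowest metformin liver, the female 1F, was above the highest control liver, the male 5C. The means were 9.81 ± 0.57 in metformin livers and 7.85 ± 0.48 in control livers (SD, n = 6 each), a log2 difference of 1.96 ± 0.24 (SE, adjusted p = 0.0226, limma).

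The other Insig1 probes were higher too, without passing the test. Probe 2 differed by 1.58 ± 0.25 (SE, adjusted p = 0.114, limma), with 7.92 to 9.20 in metformin livers and 6.75 to 7.51 in control livers. Probe 3 differed by 1.51 ± 0.30 (SE, adjusted p = 0.131, limma), and there the metformin liver 4F (7.39) was below the control liver 6C (7.55). On these probes the metformin livers divided by code letter. The 3 livers of letter E read 9.10 to 9.20, against 7.39 to 8.21 in the 3 of letter F. The first probe did not divide the letters this way, since 6F read 10.08 and 3E 9.66. The difference of the first probe was 2.09 in females and 1.82 in males, and 1.79 to 2.13 when any 1 liver was left out. The adjusted p was 0.128 without the livers of letter B, 0.16 without C, 0.096 without E and 0.0213 without F. It was above 0.05 without 1E, 4F, 1B, 5C or 6C, up to 0.116, and it was 0.0499 or 0.0507 without 3B, depending on whether probes were filtered anew. With the erythroid marker mean as a covariate the difference was 2.07 (adjusted p = 0.6, limma), and in the values normalized by the authors it was 1.22 (adjusted p = 0.0775, limma).

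**Figure D1:**
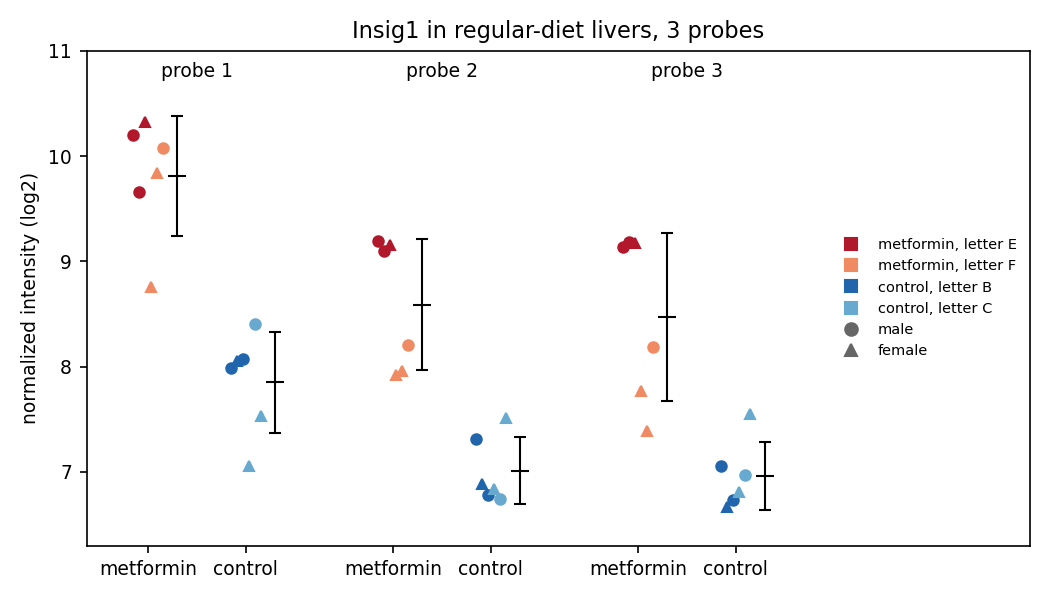
Normalized log2 intensity (y axis) of the 3 Insig1 probes in the 6 metformin and 6 control livers of RD pups, coloured by code letter, with circles for males and triangles for females. Black bars are the mean ± SD; on probe 1 the metformin livers run from 8.76 to 10.32 and the control livers from 7.06 to 8.41.

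The genes of the cholesterol pathway had higher values in metformin livers together, though only Insig1 passed the test. Of 23 genes listed for cholesterol synthesis and its control, 16 were tested, 16 had a positive log2 difference and 13 had an unadjusted p under 0.05 (4.12% of all genes were higher at that level). Their median difference was 0.50, against -0.01 over all genes. The mean over the 16 genes was 8.68 to 9.50 in metformin livers (median 9.11) and 8.33 to 8.85 in control livers (median 8.55). The 3 metformin livers of letter E held the highest list means, 9.14 to 9.50, and the female metformin liver 1F (8.68) lay within the control range. The list median was 0.24 without the 3 livers of letter E and 0.76 without the 3 of letter F, and 0.28 without the 3 control livers of letter B and 0.70 without the 3 of letter C. With the erythroid marker mean as a covariate it was 0.18, and with each array centred on its median it was 0.15, where the median of all genes was -0.33.

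Among the early enzymes, which build isoprenoid units from mevalonate, Pmvk (phosphomevalonate kinase) read 7.11 to 8.29 in metformin livers (median 7.40) and 6.73 to 6.98 in control livers (median 6.86). The groups did not overlap, and 1E and 4E were the highest. The difference was 0.71 ± 0.17 (SE, adjusted p = 0.17, limma). Mvd, which makes isopentenyl diphosphate, read 6.69 to 8.62 in metformin livers and 6.47 to 7.83 in control livers, with a difference of 0.86 ± 0.31 (SE, adjusted p = 0.299, limma). Here 1F was the lowest metformin liver and 6C the highest control liver, so the groups overlapped. Idi1, which isomerizes that unit, and Fdps, which joins such units into farnesyl diphosphate, had differences of 0.35 and 0.48.

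Squalene is then oxidized by Sqle and folded into the first sterol, lanosterol, by Lss. Lss read 9.55 to 10.37 in metformin livers (median 9.92) and 8.73 to 9.79 in control livers (median 9.20). The livers 1E and 4E were again the highest and 1F the lowest of the metformin group, and the groups overlapped through 6C and 5C among the controls. The difference was 0.73 ± 0.20 (SE, adjusted p = 0.195, limma) for Lss and 0.41 for Sqle.

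The enzymes that trim lanosterol to cholesterol had smaller or like differences. Cyp51, the lanosterol demethylase, read 8.81 to 9.87 in metformin livers and 8.29 to 9.09 in control livers, a difference of 0.59 ± 0.19 (SE, adjusted p = 0.256, limma). Nsdhl, which removes the methyl groups with Msmo1, differed by 0.63 ± 0.22 (SE) on its brightest probe, and on 1 of its 4 probes the 6 metformin livers (6.61 to 7.19) lay above the 6 control livers (5.78 to 6.47). The control liver 2B held the lowest Nsdhl value of the brightest probe, 6.83. Differences were 0.54 for Dhcr7, 0.51 for Msmo1, 0.43 for Hsd17b7 and 0.34 for Ebp, with adjusted p between 0.202 and 0.356 (limma). Srebf2, the regulator itself, was at 0.20, Sc5d at 0.29 and Tm7sf2 at 0.10, all with an unadjusted p above 0.05. These last 3 were negative when arrays were centred on their medians, where the median of all genes was -0.33.

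**Figure D2:**
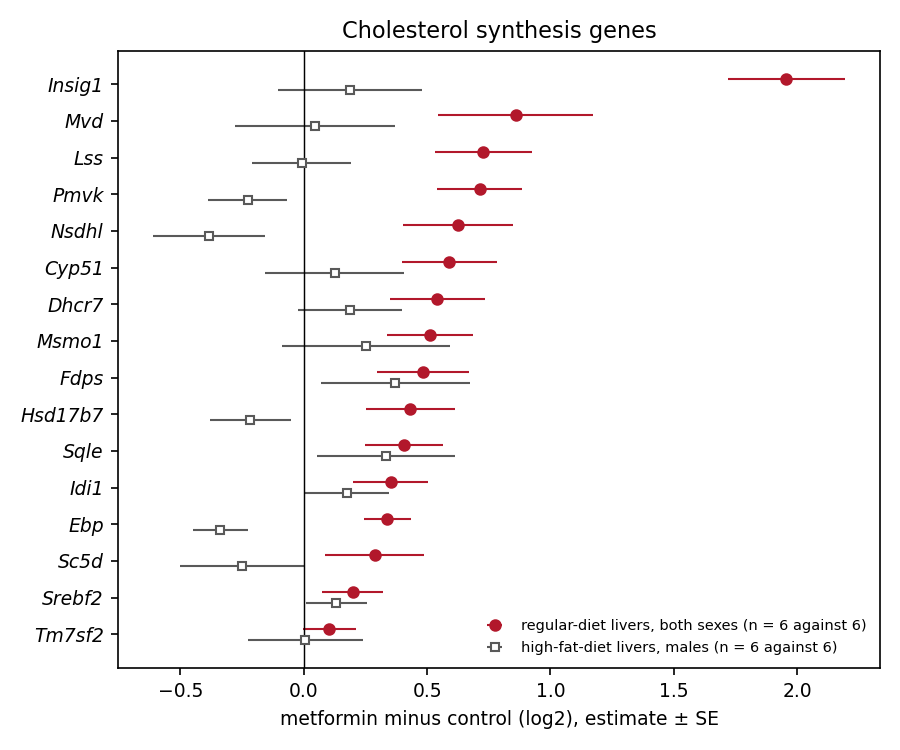
Log2 difference, metformin minus control (x axis, estimate ± SE), of the 16 tested cholesterol genes in RD livers of both sexes (filled circles) and in HFD livers of males (open squares), n = 6 against 6 in each. All 16 RD estimates lie above 0, from 0.10 for Tm7sf2 to 1.96 for Insig1, and 10 of the 16 HFD estimates do.

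Promoter sequences are shown for Insig1 and for 3 enzymes of the pathway, so that the motif they share can be seen. The 250 bases before the annotated start are from RefSeq (GRCm38.p6), 5′ to 3′ along the gene, with the motif CCAAT or its reverse complement ATTGG in capitals.
Insig1, chr5:28071162-28071411 (+ strand): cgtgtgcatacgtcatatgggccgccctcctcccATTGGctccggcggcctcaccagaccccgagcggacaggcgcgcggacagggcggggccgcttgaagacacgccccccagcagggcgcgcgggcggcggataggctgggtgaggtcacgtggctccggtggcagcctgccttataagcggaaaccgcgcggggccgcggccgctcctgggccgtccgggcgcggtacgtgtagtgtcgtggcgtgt
Lss, chr10:76531355-76531604 (+ strand): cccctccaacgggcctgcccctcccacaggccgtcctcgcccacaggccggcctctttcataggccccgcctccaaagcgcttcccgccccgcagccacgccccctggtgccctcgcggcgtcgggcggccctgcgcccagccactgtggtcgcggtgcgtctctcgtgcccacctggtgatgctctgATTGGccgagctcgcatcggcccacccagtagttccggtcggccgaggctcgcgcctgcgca
Cyp51, chr5:4104698-4104947 (- strand): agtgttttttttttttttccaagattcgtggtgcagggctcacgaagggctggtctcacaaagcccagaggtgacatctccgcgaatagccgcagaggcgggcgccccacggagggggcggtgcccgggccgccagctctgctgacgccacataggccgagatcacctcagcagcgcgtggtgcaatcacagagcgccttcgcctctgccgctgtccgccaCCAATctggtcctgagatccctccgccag
Msmo1, chr8:64733579-64733828 (- strand): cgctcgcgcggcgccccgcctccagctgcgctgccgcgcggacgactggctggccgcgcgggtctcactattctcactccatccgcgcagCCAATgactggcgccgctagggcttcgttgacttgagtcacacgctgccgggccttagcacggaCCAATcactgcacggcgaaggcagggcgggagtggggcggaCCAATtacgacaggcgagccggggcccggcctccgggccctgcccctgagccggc
CCAAT on either strand was present for 14 of 14 list genes in the table (14 of their 17 promoters), against 33.8% of 32851 promoters of the same length. Msmo1 held 3 copies and the others shown 1 each. The sterol element TCACNCCAC was in 0 of the 17 list promoters and in 1.05% of all, and the shorter TCACNCCA was in those of Msmo1 and Srebf2 and in 3.67% of all. Every match of the longer sterol motif is also one of the shorter, and a match describes the letters of this window only.

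Genes of fatty acid and triglyceride synthesis were also mostly higher, with 15 of 17 positive (46.4% of all genes) and a median of 0.22. Of them, 6 were higher at an unadjusted p under 0.05 (4.12% of all genes). Scd1, the stearoyl-CoA desaturase, read 7.70 to 8.81 in metformin livers (median 8.17) and 7.16 to 7.81 in control livers (median 7.51). The metformin livers 1E and 1F were the highest, and 3E and 6F lay within the control range. The difference was 0.70 ± 0.19 (SE, adjusted p = 0.193, limma). Acacb, which makes the malonyl-CoA that restrains fatty acid oxidation, differed by 0.48, Elovl6, a fatty acid elongase, by 0.42, Gpam, which begins glycerolipid synthesis, by 0.42, and Plin2, a lipid droplet coat protein, by 0.36. Centred on array medians the list stood at -0.09, against -0.33 for all genes.

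Lipoprotein genes had a median of 0.12, with 18 of 21 positive (46.4% of all genes). Of them, 3 were higher at an unadjusted p under 0.05 (4.12% of all genes). Apoa4, an apolipoprotein of intestinal and liver particles, read 8.21 to 10.72 in metformin livers (median 9.08) and 7.11 to 8.62 in control livers (median 7.76). The highest were 1E and 4E, and only 4F (8.21) lay inside the control range. The difference was 1.43 ± 0.37 (SE, adjusted p = 0.187, limma). Mttp, which loads lipid onto apolipoprotein B, differed by 0.44 ± 0.11 (SE, adjusted p = 0.17, limma) and Apoc2, the cofactor of lipoprotein lipase, by 0.31, while Apob was at -0.04 and Apoe at 0.10. The lipoprotein median was 0.00592 with the erythroid covariate and -0.17 with arrays centred on their medians, against -0.33 for all genes.

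Of the cytochrome P450 genes, 20 of 23 were positive (46.4% of all genes) with a median of 0.12. Cyp3a13, a drug-oxidizing enzyme, read 10.34 to 10.84 in metformin livers and 9.54 to 10.60 in control livers, a difference of 0.55, and Cyp3a25 differed by 0.44. Cyp2f2 was the other way, at -0.39 (10.10 to 10.76 in metformin livers, 10.41 to 10.92 in control livers). Cyp7a1, the rate-limiting enzyme of bile acid synthesis from cholesterol, was at 0.03. Centred on array medians the list was at -0.18, against -0.33 for all genes.

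The respiratory chain, which holds the best known target of metformin, differed little. Complex I genes had a median of 0.07, with 25 of 33 positive and 1 at an unadjusted p under 0.05. Complexes II to V had a median of 0.08, with 32 of 36 positive. Of all genes, 46.4% were positive and 4.12% were higher at that p. The mean over the 36 genes was 11.87 to 11.94 in metformin livers and 11.75 to 11.87 in control livers, so the lowest metformin liver (6F) was just above the highest control liver (1C). Centred on array medians these lists were at -0.26 and -0.24, against -0.33 for all genes, and with the erythroid covariate at 0.0158 and 0.0199. Atp5k, a small subunit of the ATP synthase, differed by 0.36, with 6.92 to 7.42 in metformin livers and 6.37 to 6.97 in control livers.

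Other fuel pathways also differed little, against a median of -0.01 over all genes. Fatty acid oxidation was at 0.08 with 14 of 18 positive, and the urea cycle at 0.09 with 11 of 13. Degradation of branched-chain amino acids was at 0.07 (15 of 20) and the citrate cycle at 0.06 (15 of 19). Gluconeogenesis was at 0.01 (9 of 15), and 46.4% of all genes were positive. Nags, which makes the activator of the urea cycle, read 7.12 to 7.86 in metformin livers and 6.57 to 7.53 in control livers, a difference of 0.60 ± 0.17 (SE, adjusted p = 0.206, limma). Hadh, of fatty acid oxidation, differed by 0.46. Among 14 genes of AMPK and energy sensing the median was -0.01, and Camkk2, a kinase that activates AMPK, was at -0.36, with 6.04 to 6.65 in metformin livers and 6.50 to 6.83 in control livers. The urea cycle median turned to -0.079 with the erythroid covariate and to -0.22 with median centring, where all genes were at -0.33. Of 7 listed carriers of metformin, 5 had a named probe and 1 was tested, at -0.04.

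The 7 liver genes that the study followed by quantitative PCR were chosen on the HFD arrays of this series. In RD livers, 6 of 7 were positive, against 46.4% of all genes. Ivd, of leucine degradation, had an unadjusted p under 0.05 (difference 0.22, adjusted p = 0.354, limma). Fh1, the fumarase of the citrate cycle, read 11.19 to 11.67 in metformin livers and 11.10 to 11.35 in control livers, a difference of 0.14, and Ndufs4, a complex I subunit, was at -0.03. The median of the 7 was 0.0381 with the erythroid covariate and -0.20 with median centring, against -0.33 for all genes.

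Erythroid and platelet genes had lower values in metformin livers, though none passed the test with all 12 livers. Of 16 tested erythroid genes, 15 had a negative difference and 10 an unadjusted p under 0.05 (7.52% of all genes were lower at that level), with a median of -0.44. The mean over the list was 8.82 to 9.80 in metformin livers (median 8.98) and 9.34 to 9.83 in control livers (median 9.66). The metformin liver 6F (9.80) stood with the highest controls, 3E (9.45) was within their range and the other 4 were below every control. As these are bulk samples, fewer cells of a type and less RNA per cell cannot be told apart. Without 6F, 30 genes out of all tested passed the test (3 higher, 27 lower), among them Ank1, Kel and Slc4a1. The erythroid median was then -0.54. For the erythroid genes this follows from leaving out the metformin liver at the level of the highest controls, and is no further evidence.

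Slc14a1, the urea transporter of red cells, read 5.67 to 6.48 in metformin livers (median 6.15) and 6.50 to 7.13 in control livers (median 6.79). The groups did not overlap, by a narrow gap between 6F and 6C, and the difference was -0.70 ± 0.15 (SE, adjusted p = 0.159, limma). Ank1, which ties the red cell membrane to its skeleton, read 7.67 to 8.47 in metformin livers and 8.33 to 8.87 in control livers, a difference of -0.70 ± 0.13 (SE, adjusted p = 0.13, limma). In Ank1 the overlap came from 6F alone. Kel, a red cell surface protein, was at -0.72 and Slc4a1, the anion exchanger, at -0.63. The haem enzymes Alas2, Urod and Uros were at -0.43, -0.37 and -0.46, the members of smallest p in a list of iron and haem handling. That list was not lower as a whole, with a median of 0.003 and 10 of 19 positive (46.4% of all genes). Of the 19, 5 were lower at an unadjusted p under 0.05 (7.52% of all genes). Hba-a1, a globin chain, was at 0.01.

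Megakaryocyte and platelet genes were lower in 12 of 12 tested, with a median of -0.50. Of these, 10 had an unadjusted p under 0.05 (7.52% of all genes were lower at that level). The list mean was 7.25 to 7.97 in metformin livers and 7.71 to 8.48 in control livers. The metformin livers 3E and 6F and the control livers 1C and 6C made the overlap. Gp1bb, of the platelet receptor for von Willebrand factor, read 5.52 to 6.70 in metformin livers (median 6.44) and 6.42 to 7.30 in control livers (median 7.12), a difference of -0.73 ± 0.15 (SE, adjusted p = 0.132, limma). Tubb1, the platelet tubulin, was at -0.65 and Ppbp, a platelet chemokine, at -0.60. Lists of other blood cells lay nearer 0. The median was -0.05 for 15 tested genes of neutrophil precursors (6 positive), 0.04 for 4 of T and NK cells (3 positive) and 0.10 for 11 of Kupffer cells and macrophages (7 positive). B cell genes lay between, with a median of -0.17 and 6 of 7 tested genes negative. Of the 7, 3 were lower at an unadjusted p under 0.05 (7.52% of all genes).

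Cell cycle and replication genes were negative in 26 of 28, with a median of -0.20. Of these, 10 had an unadjusted p under 0.05 (7.52% of all genes were lower at that level). Their list mean was 8.89 to 9.23 in metformin livers and 9.10 to 9.36 in control livers, with 3E and 6F again the metformin livers inside the control range. Nusap1, of the mitotic spindle, was at -0.41, Uhrf1, which maintains DNA methylation, at -0.37 and Mcm7, of the replication helicase, at -0.31. Erythroid and cell cycle means were thus high in the same metformin livers. With the erythroid mean as a covariate the cell cycle median was -0.07.

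**Figure D3:**
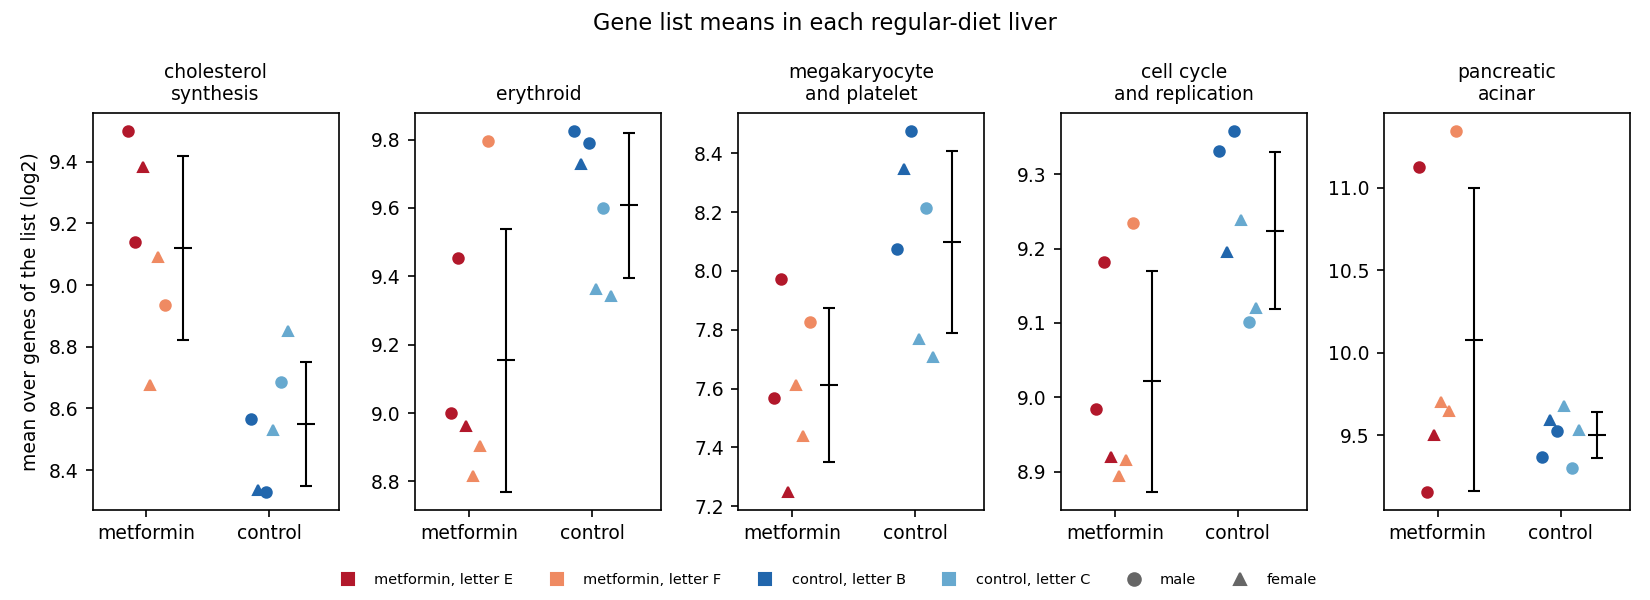
Mean log2 level over the tested genes of 5 lists (y axis) in each RD liver, metformin left and control right in each panel, coloured by code letter with circles for males and triangles for females, and black bars for the mean ± SD. The metformin livers 3E and 6F stand highest of their group for erythroid, platelet and cell cycle genes, and 1E and 6F for pancreatic genes.

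Genes of the exocrine pancreas were high in the metformin livers 1E and 6F. Without the detection filter, 15 of 17 acinar genes with a probe were higher in both than in each of the other 10 livers. Cpa1, a carboxypeptidase, read 8.74 in 1E and 8.81 in 6F, against at most 5.01 elsewhere. Cela2a, an elastase, read 11.20 in 1E and 11.08 in 6F, against at most 5.22 elsewhere. Ins2, the insulin gene, chosen after its values were seen, read 7.53 in 1E and 9.51 in 6F, against at most 5.07. With the filter 5 acinar genes were tested, with a median of 0.47. Both livers are of metformin males. With the mean of the acinar markers as a covariate 0 genes passed the pooled test in limma, with a smallest adjusted p of 0.0933 and 1798 genes at an unadjusted p under 0.05.

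The largest differences among genes with no overlap between groups included members of the lists above and other genes. After Insig1 came B3galt6, which builds the linker of proteoglycan sugar chains, then Gm5801, Lgals4, a galectin, Pmvk, C1qtnf4, a secreted protein, Gnat1, Foxk1, a transcription factor, Decr2, of peroxisomal fatty acid oxidation, and Olfr1094, with differences between 1.01 and 0.47. C1qtnf4 read 6.07 to 6.35 in metformin livers and 5.41 to 5.92 in control livers, a difference of 0.56 ± 0.10 (SE, adjusted p = 0.114, limma). Decr2 read 8.40 to 8.95 in metformin livers and 7.89 to 8.39 in control livers, a difference of 0.50.

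On the lower side, Atp8a1, a flippase that moves phospholipids between membrane leaflets, read 4.84 to 6.36 in metformin livers (median 5.65) and 6.63 to 7.06 in control livers (median 6.76). The difference was -1.13 ± 0.22 (SE, adjusted p = 0.131, limma), the metformin livers were the more scattered, and 1 of the 6 was not detected. Rbm25, a splicing factor, Usp37, a deubiquitinase, Rai1, a regulator of transcription, Sash3, a lymphocyte adaptor, Slc14a1, Trmt12, which modifies tRNA, Kmt2e, Espl1, the separase of mitosis, and Zgrf1, a helicase, followed with -0.85 to -0.57. Trmt12 read 4.72 to 5.45 in metformin livers, where it was detected in 3 of 6, and 5.54 to 5.87 in control livers. Sash3 was lowest in 2 livers of letter F, 4F (6.41) and 6F (6.66), against 7.65 to 7.98 in control livers.

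Some genes, chosen after their values were seen, had values that jumped between a high and a low level among livers of 1 group. Cptp, which carries ceramide-1-phosphate, read 4.39 to 4.63 in metformin livers, where it was detected in 0 of 6, and 6.88 to 8.22 in 5 control livers. The control female 2B read 4.51, at the level of the metformin group. The difference was -2.39 ± 0.43 (SE, adjusted p = 0.114, limma), and as the metformin values are below detection the change is at least 3.60-fold lower, set against the lowest signal of a detected probe. Without 2B Cptp passed the test (adjusted p = 5.05e-05, limma), which follows from leaving out the one control liver at the metformin level and is no further evidence.

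Abhd1, a hydrolase, read 7.69 to 9.25 in metformin livers, against 7.30 to 7.86 in control livers of letter B and 4.56 to 4.84 in those of letter C. The difference was 2.73 ± 0.56 (SE, adjusted p = 0.134, limma). This probe was detected in 6 of 6 metformin livers and in 3 of 6 control livers, those of letter B, so its level in the livers of letter C is not a measured size. Another Abhd1 probe was detected in 2 of the 3 livers of letter C, and a further one in 0 of 3. B3galt6 was even among metformin livers at 7.42 to 7.66, while the control female 1C read 5.10 and the other 5 control livers 6.63 to 7.01. Gm5801 was low in the same control female, at 8.04 against 10.17 to 10.35 in metformin livers and 9.60 to 9.72 in the other control livers. Rbm45, an RNA-binding protein, read 5.15 to 7.26 in metformin livers and 7.26 to 7.58 in 5 control livers, with 6C at 6.16. In the RefSeq order of genes, Cptp and B3galt6 lie on the same chromosome with 8 annotated genes between them, Insig1 and Abhd1 with 69, and Rbm45 and Cwc22 with 24.

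The brains of the 6 males gave a second tissue of the same animals. In them Cptp and Cwc22, a splicing factor, passed the test as lower. By the brightest probe this is Cptp alone, 0.00935% of genes, since Cwc22 was called on another probe, and 499 probes had an unadjusted p under 0.05. Cptp read 4.45 to 4.61 in metformin brains and 7.29 to 7.43 in control brains, and the called Cwc22 probe averaged 4.68 in metformin brains and 6.22 in control brains. Both were detected in 0 of 3 metformin brains and 3 of 3 control brains, so the changes are at least 4.51-fold lower for Cptp (adjusted p = 0.000447, limma) and at least 2.07-fold lower for Cwc22 (adjusted p = 0.0343, limma). B3galt6 read 9.70 to 9.75 in metformin brains and 8.79 to 9.06 in control brains, and Rbm45 read 7.11 to 7.42 in metformin brains and 8.50 to 8.72 in control brains, with neither passing the test. The 3 Insig1 probes differed by 0.60, 1.09 and 1.07 in brain, at an unadjusted p of 0.0101, 0.003 and 0.00798 (adjusted p = 1.0, limma). Probes 2 and 3 again divided the letters, with 1E and 3E at 7.56 to 8.16, 6F at 6.88 and 7.06, and the 3 control brains at 6.32 to 6.66. The cholesterol list had a median of -0.02 in brain, with 6 of 16 positive. Brain and liver values of 1 animal are not independent.

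**Figure D4:**
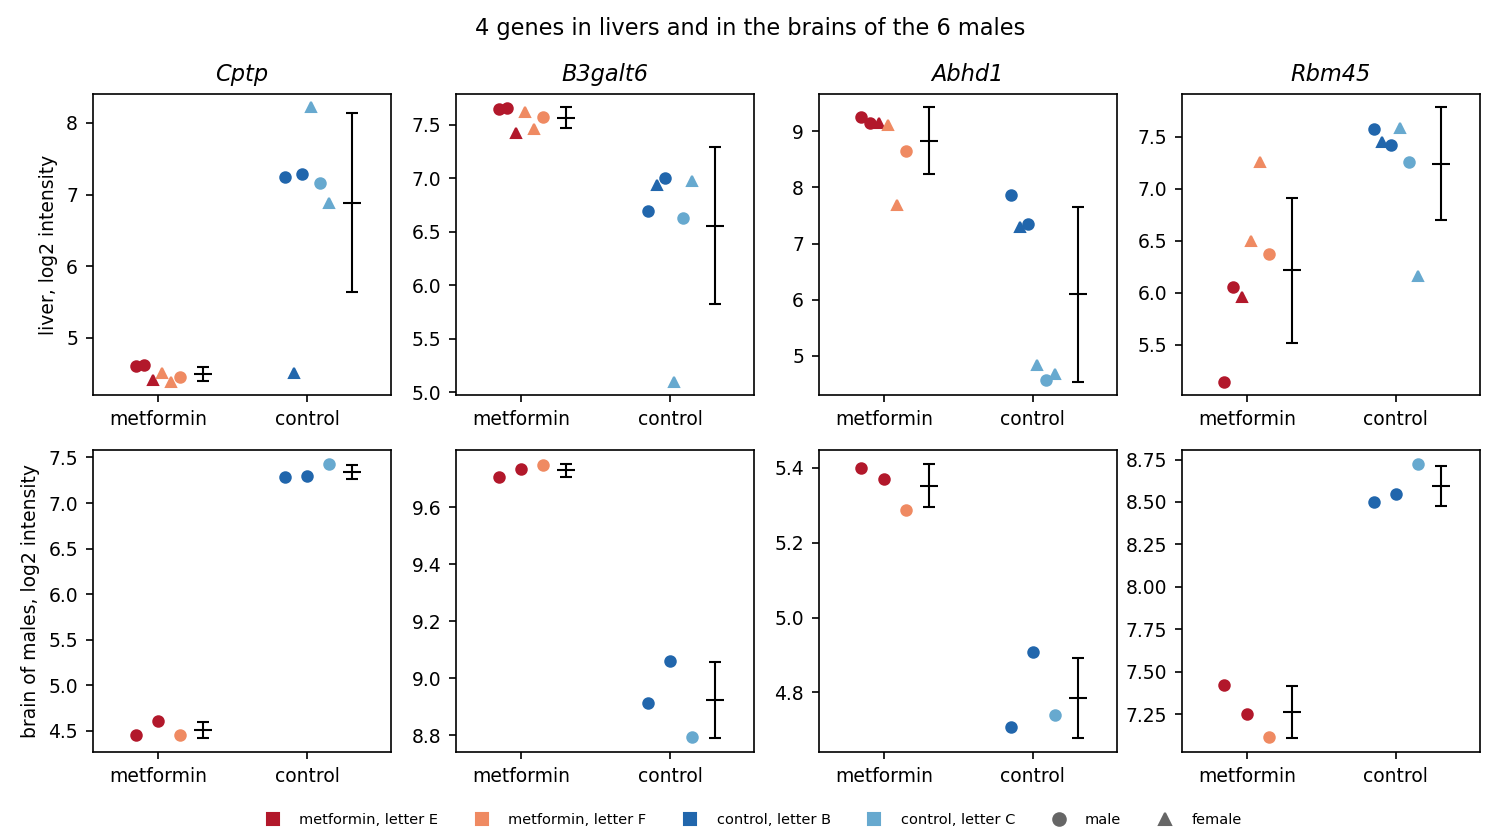
Log2 intensity (y axes) of 4 genes in the 12 RD livers (top) and in the brains of the 6 males (bottom), metformin left and control right, coloured by code letter, with circles for males, triangles for females and black bars for the mean ± SD. Cptp is at 4.39 to 4.63 in metformin livers and at 4.45 to 4.61 in metformin brains.

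The sexes were then compared. No gene passed the test in females (1101 probes at an unadjusted p under 0.05), in males (1265 probes) or for the difference of the metformin effect between them (417 probes), each 0% of genes in limma. The cholesterol median was 0.33 in females and 0.66 in males, with 16 of 16 positive in each. Erythroid genes were at -0.59 in females and -0.35 in males. Among the genes of smallest p for a sex difference were Cars and Dhrs13. Cars, a cysteine tRNA synthetase, read 5.23 ± 0.43 in metformin females and 5.35 ± 0.25 in control females (SD, n = 3 each), against 4.81 ± 0.09 in metformin males and 5.96 ± 0.23 in control males. The lowest signal of a detected probe was 4.91 to 5.05 on the arrays of the metformin males. Their Cars mean was below it, so the Cars difference in males is not a measured size. Dhrs13, a dehydrogenase, had a metformin difference of -0.44 in females and 0.55 in males. Neither difference between the sexes passed the test (adjusted p = 1.0, limma).

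In HFD livers, all male and from another study, so that diet and study cannot be told apart, metformin and control livers differed at other genes. There 38 genes were called higher and 69 lower over any probe (0.189% and 0.448% by the brightest probe). Genes called higher in HFD livers were mostly not higher in RD livers. Of 36 tested, 10 were positive (46.4% of all genes were) and 9 lower at an unadjusted p under 0.05 (7.52% of all genes). Their median was -0.06. Of 66 genes called lower in HFD livers, 54 were positive in RD livers, against 46.4% of all genes, with a median of 0.13. Of the 66, 12 were higher at an unadjusted p under 0.05 (4.12% of all genes). RD and HFD livers share no control animals.

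The difference between the RD and HFD effects passed the test for 326 genes over any probe, 126 higher and 200 lower in RD (0.796% and 1.46% by the brightest probe). That count was 0 when arrays were centred on their medians (470 genes at an unadjusted p under 0.05, limma) and 32 with RD males only. Insig1 differed by 1.75 (adjusted p = 0.0304, limma), with HFD levels of 6.10 to 7.79 in metformin livers and 6.40 to 7.97 in control livers. Pmvk and Ebp of the cholesterol list also passed, at 0.93 and 0.68. The list medians in HFD livers were 0.09 for cholesterol synthesis, 0.41 for erythroid, 0.58 for platelet and 0.27 for cell cycle genes, so the blood and cell cycle lists had opposite signs in RD and HFD livers. Of the difference, 8 erythroid and 5 platelet genes passed the test as lower in RD. The urea cycle was at -0.58 and the 7 genes followed by the study at -0.50 in HFD livers, and Fh1 differed between the diets by 0.80 (adjusted p = 0.0104, limma). In HFD livers Cptp was near the detection limit in both groups, at 4.29 to 5.06 in metformin livers and 4.52 to 5.53 in control livers.

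**Figure D5:**
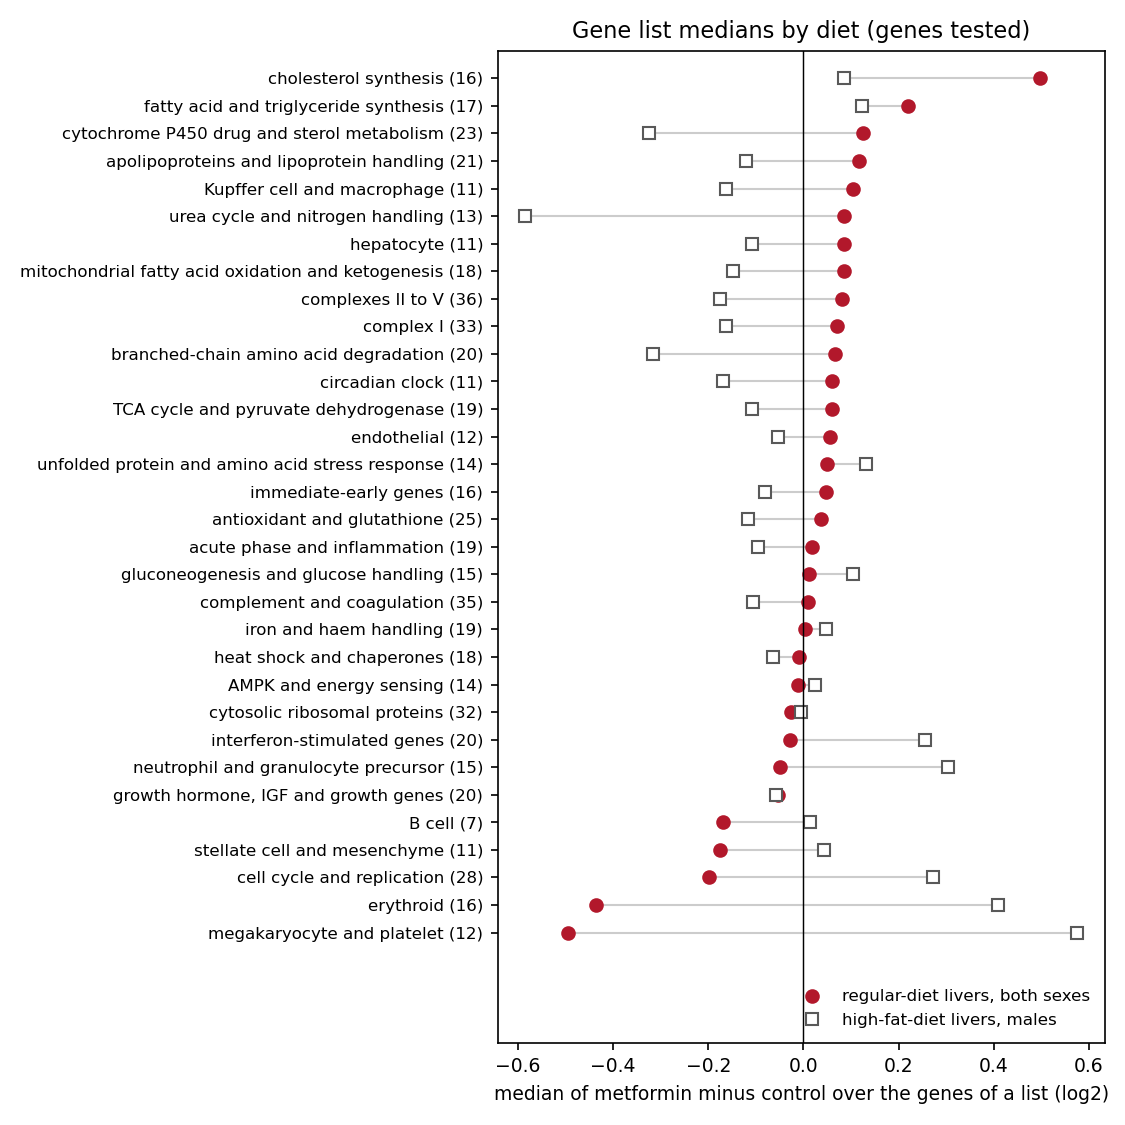
Median log2 difference, metformin minus control (x axis), over the tested genes of each list with at least 7 tested genes (numbers in brackets), in RD livers of both sexes (filled circles) and HFD livers of males (open squares). The genes followed by the study and those called in HFD livers are left out. Cholesterol synthesis is at 0.50 in RD and 0.09 in HFD livers, and platelet genes at -0.50 and 0.58.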

How the data were processed

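RNA of 12 RD livers was measured on Illumina mouse bead arrays. The authors amplified total RNA and deposited a table of raw bead intensity with a detection p-value per probe, which was used here, and a table of log2 values that they had transformed and spline-normalized with lumi over all arrays of the series, used as an alternative. The lumi version and the scanning software are not given in the sources used here, and the files name no genome build for the probes, so genes are given by name.

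The deposited intensities were background-corrected with the detection p-values, quantile normalized and log2 transformed (neqc of limma 3.58.1, offset 16, R 4.3.3). Probes with a detection p-value under 0.05 in all 3 livers of at least 1 of 4 groups were kept. Of 45281 probes, 34885 have 1 gene symbol, 18 several and 10378 none. Each probe was fitted with limma (treatment and sex, empirical Bayes), p-values were adjusted by Benjamini-Hochberg over all 17387 kept probes, and a gene was called where any of its probes had an adjusted p under 0.05. Where a gene had several kept probes, the brightest gave its value. The sexes were compared in a model of 4 groups, RD with HFD livers in a model of 24 livers, and brains by themselves. The scripts were tested on simulated data.

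Gene lists are described by counts and medians. The members and lists were chosen with earlier results of these data known. Genes named are those called, the 10 largest differences each way among genes whose groups do not overlap, the 3 list members of smallest p, the genes the study followed, and the 5 sex differences of smallest p each way. Other genes named, further list members included, were chosen after their values were seen. Alternatives were another background correction, offset, centring, filter, model or covariate, the authors' values, and each liver or code letter left out. Leaving out 3E and 4F together, the number of the animal code as a block, and for lists and single genes the settings by code letter and with the erythroid covariate, were chosen after seeing the data.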

Additional observations from a re-analysis of the deposited data

Results flagged for a closer look

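Of 170 groups of 6 livers checked, 13 held 1 liver far from the other 5, and chance gives about 1 in 20. Some of the genes checked, Cptp and Rbm45 among them, were chosen for values that jumped within a group. That rate does not apply to them. In control livers the low ones were Cptp in 2B (4.51), B3galt6 (5.10) and Gm5801 (8.04) in 1C, Cwc22 (7.38), Rbm45 (6.16) and Amy2a5 (12.44) in 6C, and Atp5k in 1B (6.37), and the high ones were Sst (5.00) and Atp5c1 (13.05) in 1B. In metformin livers the low ones were Usp37 in 1E (5.61) and Espl1 in 4F (5.83), and the high ones were Uhrf1 in 6F (10.57) and Ndufc1 in 1E (12.63). All are log2 intensities.

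The metformin effect differed between RD livers and HFD livers for 326 genes, of which 31 are described here (interaction test, limma, adjusted p 0.00516 to 0.05). RD minus HFD, the log2 difference was negative for Cptp (-1.76), Zgrf1 (-1.36), Slc14a1 (-1.35), Tubb1 (-1.33), Kel (-1.30), Atp8a1 (-1.30), Ppbp (-1.24), Rai1 (-1.20), Ank1 (-1.16), Rbm25 (-1.08), Usp37 (-1.05), Uhrf1 (-0.94), Alas2 (-0.86), Espl1 (-0.77) and Urod (-0.60). It was positive for Insig1 (1.75), Decr2 (1.41), Nags (1.31), Gnat1 (1.02), Lgals4 (1.00), B3galt6 (0.99), Pmvk (0.93), Fh1 (0.80), Sst (0.73), Atp5k (0.69), Etfdh (0.69), Ebp (0.68), Ivd (0.67), Mttp (0.63), Dhrsx (0.49) and Atp5c1 (0.37). Cptp was detected in 0 of 6 metformin and 5 of 6 control RD livers, and in 0 of 6 metformin and 1 of 6 control HFD livers, so its value is not a measured size. Sst was detected in 3 of the 10 livers other than 1E and 6F, and read at most 5.00 in control livers, near the detection limit. It read 5.73 in 1E and 6.55 in 6F, against at most 6.16 in the other 10, so its value is not a measured size either. Cptp, Dhrsx and Sst were chosen after their values were seen. Diet and study cannot be told apart in these values.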

How the results depend on the processing

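Insig1 was higher in metformin livers under every setting it was recomputed with. The count of genes called in the pooled livers, 1, was 0 with the authors' log2 values, without a detection filter, with robust variance estimates, with the erythroid or the acinar mean as a covariate, without 3E and 4F, and without letter C or E. It was 4 without letter B, which were Abhd1 (higher), Cptp, Cyp4a12a and Tnfrsf14 (lower) and not Insig1 (adjusted p = 0.128), 4 without letter F (4 higher), 5 with arrays centred on their medians (5 lower), 9 in a model of 24 livers and 19 in one of 41 arrays. Leaving out 1 liver gave 0 to 30 genes, with 30 without 6F. Median centring gave 1 gene in females, the 6 males alone gave 1, and leaving out 1 liver gave 0 to 34 genes in males (34 without 3E, when probes such as that of Cpa1 passed the detection filter through 1E and 6F), 0 to 2 in females and 0 to 28 for the sex difference (28 without 3E). The 326 genes of the RD and HFD difference became 0 with median centring and 32 with males only, and 94 (without 3B) to 681 (without 6F) with 1 liver left out. The 2 brain genes became 0 with the authors' values and 1 to 2 with 1 brain left out.

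Median centring moved the median of all genes to -0.33, and the list medians to 0.15 for cholesterol, -0.0915 for fatty acid, -0.17 for lipoprotein, -0.18 for P450, -0.26 for complex I, -0.24 for complexes II to V, -0.20 for the genes followed by the study, -0.22 for urea cycle, -0.12 for hepatocyte, -0.79 for erythroid, -0.82 for platelet, -0.32 for iron and haem and -0.56 for cell cycle genes. Without letter E, cholesterol was at 0.24, complexes II to V at 0.0437, the followed genes at 0.0334 and iron at -0.14. Without letter F, cholesterol was at 0.76 and fatty acid synthesis at 0.41. With the erythroid covariate, cholesterol was at 0.18, lipoprotein at 0.00592, complex I at 0.0158, complexes II to V at 0.0199, the followed genes at 0.0381, the urea cycle at -0.079 and erythroid itself at 0.00155. The erythroid value follows from the fit, as the covariate is the mean of those genes. With 1 liver left out the medians spanned 0.39 to 0.59 for cholesterol, -0.54 to -0.36 for erythroid, -0.56 to -0.39 for platelet and -0.24 to -0.18 for cell cycle genes.

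Signs turned with median centring for Sc5d (-0.0352), Srebf2 (-0.15), Tm7sf2 (-0.26), Plin2 (-0.0103), Apoc2 (-0.0533), Fh1 (-0.20), Etfdh (-0.25), Uqcrh (-0.16), Atp5c1 (-0.23), Ivd (-0.14), Acaa2 (-0.12), Amy2a5 (-0.0236) and Ndufc1 (-0.0949), with the erythroid covariate for Tm7sf2 (-0.0527), Alas2 (0.0382) and Uros (0.00378), without letter E for Acaa2 (-0.0303), and for Ndufs4 without letter B (0.0888), without 6F (0.0212) and without 1B (0.0274). Alas2 is itself a member of the erythroid mean, so its move toward 0 with that covariate follows in part from the fit. With 1 liver left out Ndufs4 spanned -0.0892 to 0.0274. Of the other values of single genes, 1666 kept their direction and side of the threshold. The causes were not tested. Numbers of the animal codes recur between the groups, but no source states that they pair pups. Of 6 metformin and control pairs with 1 number, 3 had a correlation of deviations from the group means above 0.1 (0.000869 to 0.192). Livers recur among these pairs, and no pairs of different numbers were set beside them. The values therefore cannot show whether the number pairs pups. With the number as a replicate block 1 gene passed, Cptp (adjusted p = 0.0383), and Insig1 was at 1.75 (adjusted p = 0.0807). This fit, chosen after seeing the data, gives no weight to 2B and 5C, whose numbers no other liver has. It leaves 4 residual degrees of freedom, and no control liver has the number of 4E and 4F. As 2B is the control liver at the metformin level for Cptp, the Cptp call is no further evidence. Signal near background limits Cptp, Rbm25, Trmt12 and Atp8a1 in metformin livers, and Cptp and Cwc22 in metformin brains. It also limits the brightest Abhd1 probe in control livers of letter C, Sst in control livers and Cars in livers of metformin males.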
